A study of Mus musculus with 16 samples.

Results

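The comparison described here asks whether loss of NFAT5 alters how macrophages respond to lipopolysaccharide (LPS), a bacterial cell wall component. It is a difference of differences: the LPS response of NFAT5 knockout (KO) cells minus the LPS response of wild-type cells. All 16 arrays of the series enter it, and all 19937 measured genes were tested. The cells were murine bone-marrow-derived macrophages, phagocytes grown in culture from bone marrow cells, of 129sv background. The 4 groups, each of 4 arrays, were wild type without stimulation, wild type with LPS, NFAT5 KO without stimulation and NFAT5 KO with LPS. The labels used here name no LPS dose, no length of stimulation, no age of the mice and no exons removed from the KO allele. They also do not state whether a group's 4 arrays hold 4 animals or repeats of fewer, so the p-values reflect the spread among these arrays, part of which may be technical.

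NFAT5 binds DNA through a domain related to those of NF-kB and the NFAT proteins, and is known above all for the cell's answer to high salt, in which it induces transporters of protective osmolytes. LPS is sensed by Toll-like receptor 4 with its co-receptor Cd14. One branch of signalling from this receptor activates NF-kB and MAP kinases and turns on cytokine genes, and a later branch leads to type I interferon, which turns on antiviral genes. Macrophages also switch off many genes after LPS, including genes of antigen presentation and migration.

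Values are log2 expression levels, so a difference of 1 is a 2-fold change. Array medians lay between 6.76 and 6.86, and precision is limited by 4 arrays per group. The mean level of 7 macrophage markers, among them Csf1r, Adgre1 and Itgam, lay between 11.9 and 12.5 on the 16 arrays. It was 11.9 to 12.1 in wild-type LPS arrays and 12.1 to 12.2 in KO LPS arrays. Means of the 7 marker lists for other cells, from neutrophils to stromal cells, lay between 5.15 and 7.31. For the difference in response, 0 of their 66 measured genes were called in limma (5 at an unadjusted p under 0.05). Over all genes the shares were 1.29% and 10.3%, so 0 of 66 does not set these markers apart. Sex-linked transcripts did not match across genotypes. Xist, a transcript of female cells, was at 11.71 to 12.5 on the 8 wild-type arrays and on KO arrays 4, and at 5.67 to 6.29 on KO arrays 1 to 3, where the Y-linked Kdm5d was at 7.36 to 8.46. By these transcripts 6 KO arrays are male and the other 10 arrays female, so the genotype comparison within each treatment is also largely one of sex. The same holds for the difference in LPS response. Outside KO arrays 4, it cannot be told apart from a difference in LPS response between the sexes.

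Promoters of 3 genes that carry the main patterns are shown first, because they hold a motif of NF-kB or of the interferon response, which most promoters searched in their lists do not. Each line gives the 250 bases before the start of the gene on the plus strand, from RefSeq on build GRCm38.p6. The Il6 window is chr5:30012864-30013113, the Cxcl1 window chr5:90890995-90891244 and the Ifit3 window chr19:34583279-34583528. Capitals mark matches to a form of the NF-kB motif, GGGA and TTCC separated by 2 bases, in Il6 and Cxcl1. In Ifit3 they mark the core of the interferon response element, GAAA and GAAA separated by 2 bases, and both matches lie on the opposite strand. The Cxcl1 matches overlap by all but 1 base.
Il6: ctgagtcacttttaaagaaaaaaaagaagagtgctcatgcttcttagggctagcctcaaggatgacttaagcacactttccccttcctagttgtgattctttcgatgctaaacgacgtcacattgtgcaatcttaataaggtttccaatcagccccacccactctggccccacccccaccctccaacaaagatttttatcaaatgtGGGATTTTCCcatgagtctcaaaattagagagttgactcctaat
Cxcl1: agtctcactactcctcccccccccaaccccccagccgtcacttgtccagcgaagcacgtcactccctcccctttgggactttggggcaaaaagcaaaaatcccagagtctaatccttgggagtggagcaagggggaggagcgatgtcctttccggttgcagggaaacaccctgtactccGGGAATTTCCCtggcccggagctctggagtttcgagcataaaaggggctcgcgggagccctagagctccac
Ifit3: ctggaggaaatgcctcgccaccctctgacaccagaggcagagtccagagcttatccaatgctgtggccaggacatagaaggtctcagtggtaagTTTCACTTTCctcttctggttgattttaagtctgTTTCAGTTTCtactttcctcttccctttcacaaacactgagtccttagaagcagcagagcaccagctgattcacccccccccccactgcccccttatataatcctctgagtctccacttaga

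Across all genes, the responses of the 2 genotypes resembled each other: Pearson's r between the wild-type and the KO response was 0.90 and Spearman's rho 0.76 over 19937 genes, which are not independent replicates. The difference between the responses was called for 257 genes, 1.29% of those tested (limma, Benjamini-Hochberg adjusted p under 0.05). In 197 of them (0.988% of all genes) the KO response was more positive than the wild-type response, and in 60 (0.301%) it was more negative. With quantile normalisation the split was 122 and 80. At an unadjusted p under 0.05, 2044 genes (10.3%) passed. At least a 2-fold difference between the responses was seen in 110 of the called genes, 68 more positive and 42 more negative, and the median size over called genes was 0.92 on the log2 scale. In the same fit KO cells without LPS were higher than wild type in 28 genes (0.14%) and lower in 172 (0.863%), and with LPS higher in 358 (1.8%) and lower in 251 (1.26%).

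Among the 257 called genes, the KO response was smaller in size, whatever its sign, in 187 and larger in 70. The 187 include 22 genes with a wild-type estimate below 0 and a KO estimate above it, and 5 with the reverse. The same split over all genes was not counted. Among the 60 genes with a more negative KO response, 49 had rises estimated in both genotypes with the smaller in KO cells, and their group as a whole had a median response of 2.12 in wild-type and 0.68 in KO cells. Among the 197 with a more positive KO response, 111 had falls estimated in both genotypes with the smaller in KO cells, 52 had rises in both with the larger in KO cells, and in 34 the wild-type estimate was below 0 and the KO estimate above it. Judged on linear levels in place of log2 levels, the sign of the difference was the same for 256 of the 257 genes. Sema4a, a membrane semaphorin, was the exception and was named after its values were seen.

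**Figure D1:**
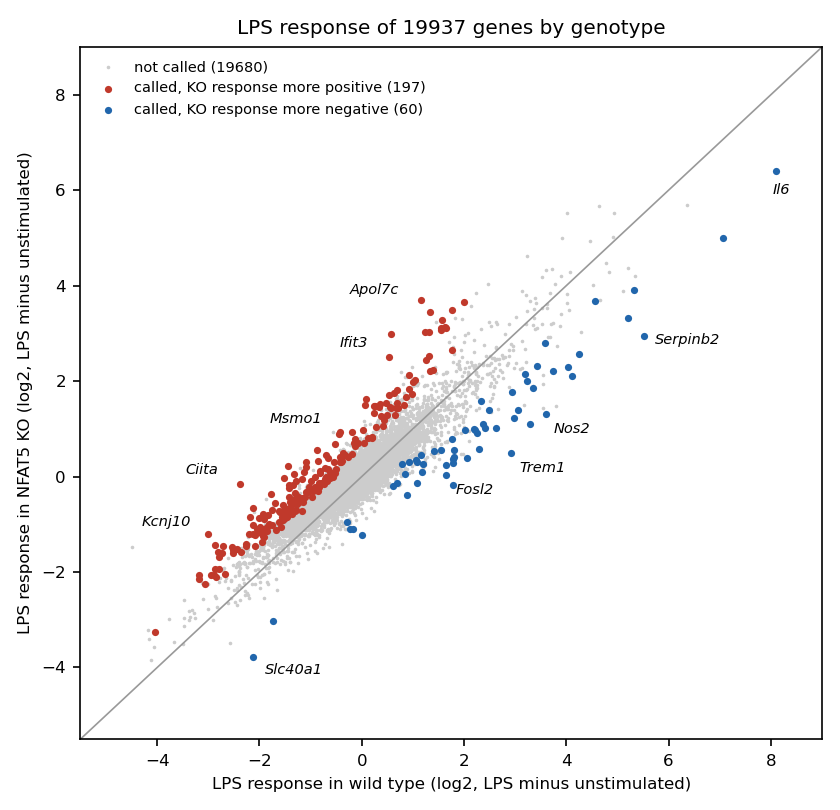
LPS response of each of 19937 genes in wild-type cells (x axis) and in NFAT5 KO cells (y axis), both as LPS minus unstimulated means on the log2 scale, n = 4 arrays per group. The grey line marks equal responses. The 197 red genes lie above it and the 60 blue genes below it, and most blue genes lie where both responses are rises.

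The number of calls depended on the samples and on how the spread was estimated. With array numbers as blocks that tie KO to wild-type arrays within each treatment, 631 genes were called, 474 more positive and 157 more negative, and 253 of the 257 genes were among them. With a term for sex that has its own LPS response, 8 genes were called (7 of the 257). In that fit the KO response rests on the KO arrays numbered 4, the only ones with Xist above Kdm5d, so it is 1 array per treatment, assumed to vary like the others. These arrays also helped to choose the 257 genes, so the fit is no independent check of them. Most genes named below, among them Serpinb2, Trem1, Il1a, Lcn2, Cd14, Msmo1 and Apol7c, were not called with the sex term. Without the arrays numbered 1 in all groups 33 genes were called, and in a fit to all 34760 probe sets of the array 54 were. Leaving out 1 array at a time gave 133 to 271 calls, with 136 without wild-type unstimulated array 2, 133 without wild-type LPS array 2, 149 without KO unstimulated array 1, and 148, 168 and 145 without KO LPS arrays 1, 2 and 3. Of the 257 genes, 113 were called in all 16 of these fits, 80 more positive and 33 more negative, and the same 113 were called with the blocks.

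**Figure D2:**
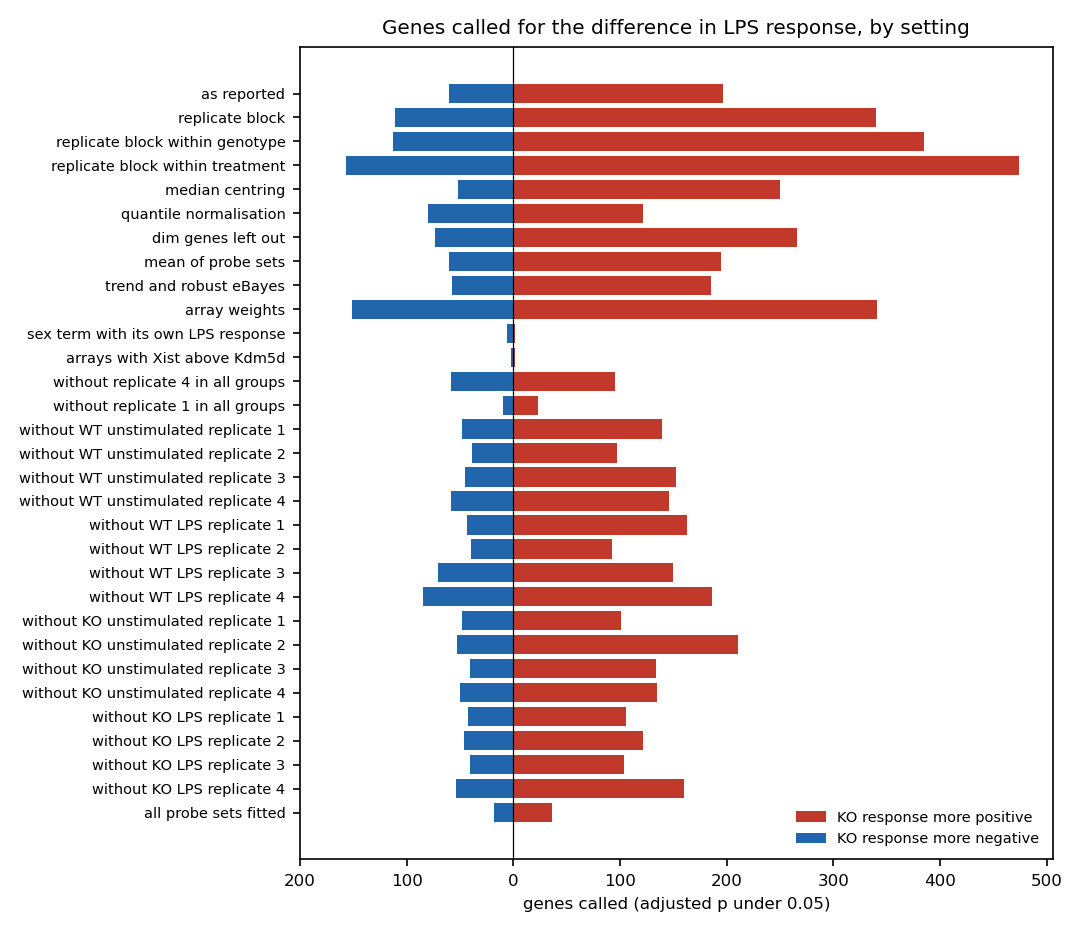
Genes called for the difference in LPS response under each setting tried, as bars from 0 to the right for a more positive KO response and from 0 to the left for a more negative one. The bars as reported stand at 197 and 60, the longest are those of the block within treatment at 474 and 157, and the bars of the sex term and of the arrays with Xist above Kdm5d hold 8 and 4 genes.

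Genes that respond to LPS were defined by the response averaged over both genotypes, which is independent of the difference in this balanced design. Of 675 genes induced at least 2-fold, 34 (5.04%) had a more positive and 38 (5.63%) a more negative KO response. Their median response was 1.57 in wild-type and 1.52 in KO cells, so the induced genes as a class moved about as far in both genotypes. Of 733 genes repressed at least 2-fold, 69 (9.41%) had a more positive KO response, which is a shallower fall, and 2 (0.273%) a more negative one. The median response of the repressed genes was -1.53 in wild-type and -1.20 in KO cells, and the difference was below 0 for 16.8% of them against 54.1% of all genes. Over all alternatives the median difference of the repressed genes stayed between 0.23 and 0.40. With the blocks within treatment the counts were 61 and 79 for induced and 141 and 7 for repressed genes, and with quantile normalisation the repressed genes gave 44 and 4. With the sex term 5 induced genes were called, all with a more negative KO response, and 2 repressed genes, both with a more positive one.

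Single arrays moved these counts. The 69 became 33 and 38 without wild-type unstimulated arrays 2 and 4, 35 without wild-type LPS array 2, 34 and 43 without KO unstimulated arrays 1 and 3, and 34, 38 and 44 without KO LPS arrays 1, 2 and 3. The 34 became 20 without wild-type unstimulated array 2 or KO unstimulated array 1, 18 without wild-type LPS array 2 or KO LPS array 3, and 22 without KO unstimulated array 3 or KO LPS array 4. The 38 became 24 without wild-type unstimulated array 2 or wild-type LPS array 2, and 23 without KO unstimulated array 3.

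Among induced genes with a more negative KO response were inflammatory mediators. Nos2, the inducible nitric oxide synthase, lay at 6.86, 6.75, 6.76 and 6.66 in unstimulated wild-type arrays and at 10.55, 10.4, 10.02 and 10.44 with LPS. In KO arrays it lay at 6.88, 6.67, 6.54 and 6.9 without LPS and at 7.8, 7.82, 7.91 and 8.67 with LPS. The genotypes overlapped without LPS, and every KO LPS array lay below every wild-type LPS array. Nos2 rose 12.1-fold in wild-type and 2.47-fold in KO cells, a difference in response of -2.29 ± 0.23 (SE, adjusted p = 7.35e-05). With the sex term, where KO array 4 alone stands for KO cells in each treatment, the difference was -1.83, and KO LPS array 4 is the one at 8.67.

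Il6, a cytokine of fever and the acute phase, lay at 4.37, 3.86, 4.39 and 4.32 in unstimulated wild-type and at 4.37, 4.42, 4.23 and 4.65 in unstimulated KO arrays. With LPS it lay at 12.2, 12.61, 12.29 and 12.28 in wild-type and at 11.01, 10.9, 10.53 and 10.84 in KO arrays. It was thus strongly induced in both genotypes and lower on all 4 KO LPS arrays than on any wild-type LPS array. The rise was 276-fold in wild-type and 84.5-fold in KO cells, a difference of -1.71 ± 0.19 (adjusted p = 0.000211). With the sex term the difference was -1.92. The folds of Il6 start from dim levels, which RMA compresses, so they are not exact.

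Of 28 measured cytokines, 6 had a more negative KO response and 0 a more positive one. The called share was 21.4%, against 1.29% of all genes. The median difference over the list was -0.27, against -0.02 over all genes. Il1a, an alarm cytokine of the interleukin 1 family, rose 134-fold in wild-type and 32.0-fold in KO cells (difference -2.07 ± 0.39, adjusted p = 0.0145). Osm, a cytokine of the Il6 family, was at 8.9, 9.14, 8.3 and 8.21 in wild-type LPS arrays and at 7.42, 7.52, 7.41 and 7.24 in KO LPS arrays, against 7.4 to 7.77 in unstimulated arrays of both genotypes. It rose by 1.08 in wild-type cells, the KO response was -0.13 (adjusted p = 0.677), and the difference was -1.21 ± 0.22 (adjusted p = 0.0131). Csf3 and Csf2, growth factors of neutrophils and of myeloid cells, had differences of -1.43 (adjusted p = 0.0232) and -1.67 (adjusted p = 0.0471). The sixth gene was Il1rn, the antagonist of the interleukin 1 receptor, at -1.04 (adjusted p = 0.0431), named after its values were seen. The count fell to 3 without wild-type unstimulated array 2, KO LPS array 1 or KO LPS array 2 and to 1 with the sex term. With the blocks within treatment it was 8, with 2 cytokines more positive: Il12a (-1.44, adjusted p = 0.00553) and Il12b were added on the negative side, and Il15 (0.565, adjusted p = 0.0408) and Cxcl16 (0.592, adjusted p = 0.0124) on the positive side. Il12a, Il15 and Cxcl16 were named after their values were seen.

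Csf2 lost its call in 13 of the 16 fits that leave out 1 array, with adjusted p from 0.0661 to 0.0964. Csf3 lost it without wild-type unstimulated array 2 (adjusted p = 0.058), wild-type LPS array 2 (0.0549), KO LPS array 1 (0.0512) or KO LPS array 2 (0.051). Il6, Il1a and Osm kept theirs in all 16.

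Other well-known targets of LPS did not pass the test for a difference. Tnf, the founding cytokine of its family, lay between 13.28 and 13.63 in wild-type LPS arrays and between 13.09 and 13.31 in KO LPS arrays, and its response was 4.01 in wild-type and 3.82 in KO cells (difference -0.19 ± 0.13, adjusted p = 0.731). For Il1b the difference was 0.46 ± 0.37 (adjusted p = 0.781). Ptgs2, the inducible cyclooxygenase, differed by -0.67 ± 0.19 (adjusted p = 0.101, and 0.0299 without KO unstimulated array 1). Il12b, a subunit of interleukins 12 and 23, differed by -1.22 ± 0.42 (adjusted p = 0.233) and was called with the blocks within treatment (adjusted p = 0.015).

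Among 22 chemokines, which attract leukocytes, 1 was called (4.55%, against 1.29% of all genes), with a median difference of -0.35 over the list. Cxcl1, which attracts neutrophils, lay at 12.29, 12.51, 12.41 and 12.35 in wild-type LPS arrays and at 11.32, 11.2, 11.04 and 11.42 in KO LPS arrays. It rose 23.6-fold in wild-type and 12.8-fold in KO cells (difference -0.88 ± 0.15, adjusted p = 0.0103). Ccl7 differed by -1.41 ± 0.36 (adjusted p = 0.0667, and 0.00778 without KO LPS array 4), Cx3cl1 by -1.35 ± 0.34 (adjusted p = 0.0582, 0.0213 with the blocks and 0.0167 without wild-type LPS array 4) and Ccl2 by -0.81 ± 0.34 (adjusted p = 0.377). With the blocks 3 chemokines were called. The list was not uniform: single differences ran from -2.10 to 1.51.

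The NF-kB motif shown above, searched on both strands, occurred in 4 of 17 promoter windows of chemokines (23.5%), in 3 of 23 windows of cytokines and in 222 of 19176 windows of all measured genes (1.16%). It occurred in 2 of 58 windows of genes with a more negative KO response (3.45%) and in 3 of 220 of genes with a more positive one (1.36%). The short core of the NFAT family motif, TGGAAA, occurred in 12 of 58 windows (20.7%) of the first group, 35 of 220 (15.9%) of the second and 16.8% of all windows. Windows were found for 15613 of the 19937 genes, and some genes have more than 1. These are matches of letters, not measured sites.

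**Figure D3:**
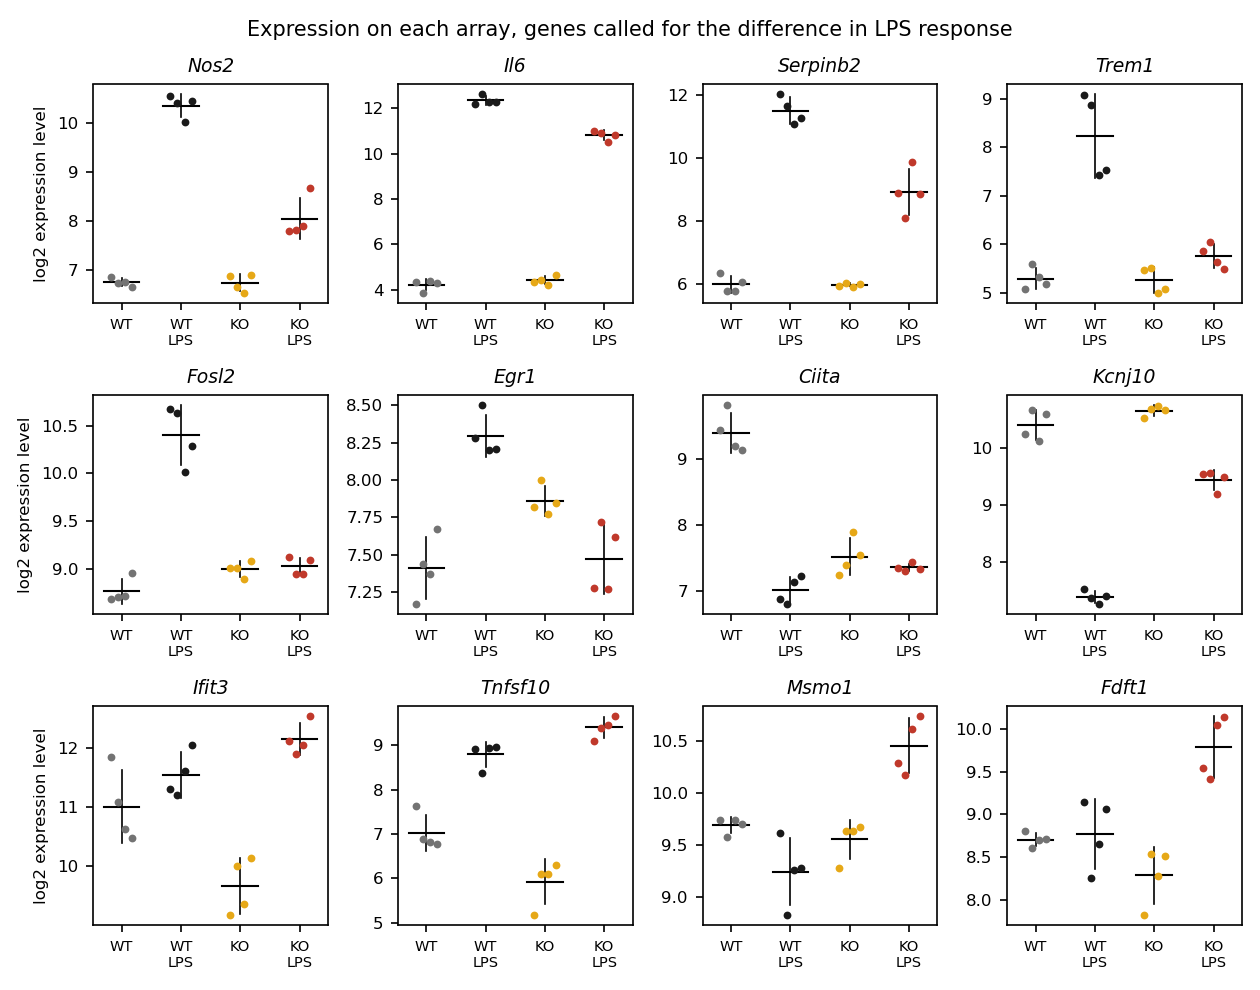
Log2 expression level (y axis, a separate scale for each gene) of 12 genes on each of the 16 arrays, with points for arrays, horizontal bars for group means and vertical bars for 1 SD (n = 4). Nos2, Il6, Serpinb2, Trem1, Fosl2 and Egr1 are lower on KO LPS arrays than on wild-type LPS arrays, Ciita and Ifit3 differ mainly without LPS, and Kcnj10, Msmo1 and Fdft1 are higher on KO LPS arrays.

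Genes of the plasminogen system and of tissue breakdown stood out in the same direction. Serpinb2, an inhibitor of plasminogen activators, had the most negative difference of all genes named: it lay at 12.03, 11.67, 11.09 and 11.28 in wild-type LPS arrays and at 8.88, 8.1, 9.88 and 8.85 in KO LPS arrays. Without LPS it was between 5.77 and 6.36 in both genotypes. The rise was 46.2-fold in wild-type and 7.74-fold in KO cells (difference -2.58 ± 0.38, adjusted p = 0.00332). Plaur, the receptor of urokinase, which activates plasminogen, differed by -1.66 ± 0.33 (adjusted p = 0.0175), and F3, the tissue factor that starts coagulation, by -0.78 ± 0.14 (adjusted p = 0.0131). Mmp13, a collagenase, differed by -1.68 ± 0.36 (adjusted p = 0.0278), but lost its call in 10 of the 16 fits that leave out 1 array (adjusted p up to 0.0656). In all, 4 of 20 members (20%) of the matrix, protease and coagulation list were called, against 1.29% of all genes. All 4 were more negative, and the median over the list was -0.50.

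Of 34 macrophage receptors and lineage factors, 2 had a more negative and 2 a more positive KO response (11.8% called, against 1.29% of all genes). Trem1, a receptor that amplifies inflammatory signals, lay at 9.07, 8.86, 7.43 and 7.53 in wild-type LPS arrays and at 5.86, 6.06, 5.63 and 5.5 in KO LPS arrays. Without LPS it lay between 5.0 and 5.59. The wild-type arrays with LPS fell into 2 high and 2 lower values, and all 4 were above every KO array. It rose by 2.92 in wild-type cells, the KO response of 0.50 was not called (adjusted p = 0.265), and the difference was -2.43 ± 0.41 (adjusted p = 0.00843). Olr1, a receptor for oxidised lipoprotein, rose 17.2-fold in wild-type and 4.31-fold in KO cells (difference -2.0 ± 0.30, adjusted p = 0.00368). With the sex term its difference was -2.71. With the blocks within treatment 3 genes of this list were more negative and 4 more positive, by the addition of Fcgr2b, Clec7a and Clec4n.

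Iron and acute phase genes gave 3 calls among 12 measured (25%, against 1.29% of all genes), all more negative. The list as a whole was not shifted: its median difference was 0.03, with 6 members below 0 and 6 above it. Lcn2, which sequesters bacterial iron carriers, rose by 5.20 in wild-type and by 3.32 in KO cells (difference -1.89 ± 0.31, adjusted p = 0.00731). Slc39a14, an importer of zinc and iron, differed by -1.16 ± 0.22 (adjusted p = 0.0139). Slc40a1 is ferroportin, the iron exporter, and showed another shape. It lay at 6.82, 7.48, 8.07 and 8.39 in unstimulated wild-type and at 9.98, 9.81, 10.17 and 9.78 in unstimulated KO arrays, and with LPS at 5.25 to 5.8 and 5.84 to 6.42. It fell in both genotypes, 4.39-fold in wild-type and 13.7-fold in KO cells (difference -1.64 ± 0.34, adjusted p = 0.0228). That call was lost without wild-type unstimulated array 2 (adjusted p = 0.058) and without KO unstimulated array 3 (0.05).

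Early response genes are switched on within minutes to hours of a stimulus and encode transcription factors and feedback phosphatases. Of 29 such genes, 4 had a more negative KO response and 0 a more positive one (13.8% called, against 1.29% of all genes). The difference was below 0 for 25 of the 29, with a median of -0.32 that stayed between -0.41 and -0.28 under every alternative, and of all genes 54.1% were below 0. The mean level of the list was 9.05 to 9.28 on wild-type LPS arrays and 8.73 to 8.83 on KO LPS arrays, against 8.20 to 8.31 without LPS.

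Fosl2, a subunit of AP-1, lay at 8.68, 8.7, 8.71 and 8.96 without LPS and at 10.67, 10.63, 10.01 and 10.29 with LPS in wild-type arrays. In KO arrays it lay at 9.01, 9.01, 8.89 and 9.08 without LPS and at 9.12, 8.95, 8.95 and 9.09 with LPS. The KO groups thus covered the same range with and without LPS, while the wild-type groups did not overlap. The responses were 1.64 and 0.03, a difference of -1.61 ± 0.17 (adjusted p = 0.000146).

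Egr1, a zinc finger factor of the first wave, was at 7.17, 7.44, 7.37 and 7.67 in unstimulated wild-type and 8.28, 8.5, 8.2 and 8.21 in LPS wild-type arrays. In KO arrays it was at 7.82, 8.0, 7.77 and 7.85 without LPS and at 7.28, 7.72, 7.27 and 7.62 with LPS. The order of the treatments was therefore opposite in the genotypes: Egr1 rose by 0.89 in wild-type cells and fell by 0.39 in KO cells (adjusted p = 0.0245), a difference of -1.27 ± 0.17 (adjusted p = 0.0018). Nr4a1, an orphan nuclear receptor, responded by 1.65 in wild-type and by 0.24 in KO cells (difference -1.41 ± 0.20, adjusted p = 0.00293). Ier3 differed by -1.24 ± 0.27 (adjusted p = 0.0305) and lost its call in 9 of 16 fits that leave out 1 array (adjusted p up to 0.0741). None of the 4 was called with the sex term.

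The list of NF-kB genes held no call. Of 19 subunits and inhibitors 0 were called in limma (3 at an unadjusted p under 0.05). With the blocks within treatment 1 was called, Traf1, an adaptor of TNF receptors placed in this list (adjusted p = 0.028). The median difference was 0.03, and the median response was 1.71 in wild-type and 1.92 in KO cells. Nfkbiz, which encodes a nuclear cofactor of NF-kB, rose by 2.20 and 2.87 (difference 0.67 ± 0.22, adjusted p = 0.18). Of 17 costimulation and checkpoint molecules 0 were called (2 at an unadjusted p under 0.05), with a median of -0.01. Among all genes 1.29% were called and 10.3% passed the unadjusted threshold, so 0 calls in lists of this size do not set them apart.

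Feedback genes that limit cytokine signals were mixed, with 2 more negative and 1 more positive among 15 (20% called, against 1.29% of all genes). Cish, a suppressor of cytokine receptor signalling, responded by 1.81 in wild-type and by 0.41 in KO cells (difference -1.40 ± 0.28, adjusted p = 0.0179). Ptpn1, a tyrosine phosphatase, differed by -0.79 ± 0.18 (adjusted p = 0.0415) and lost its call in 12 of 16 fits that leave out 1 array (adjusted p up to 0.0904). Zfp36l2, which promotes decay of messenger RNA, fell 5.82-fold in wild-type and 2.78-fold in KO cells (difference 1.07 ± 0.22, adjusted p = 0.0189).

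Interferon-stimulated genes gave the opposite pattern. Of 33 measured, 10 had a more positive KO response and 0 a more negative one, and the difference was above 0 for all 33, with a median of 0.88 against -0.02 over all genes. At an unadjusted p under 0.05, 29 of the 33 passed, against 10.3% of all genes. The called share was 30.3%, against 1.29% of all genes. The median response was 0.95 in wild-type and 2.09 in KO cells. The genotypes were farther apart before LPS than after it: the median of KO minus wild type was -0.82 without LPS and 0.08 with LPS. The mean level of the list was 10.4, 9.83, 9.69 and 9.43 on unstimulated wild-type arrays and 8.67, 9.30, 8.98 and 9.17 on unstimulated KO arrays. With LPS it was 11.04 to 11.27 and 11.16 to 11.44, ranges that overlap.

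Wild-type unstimulated array 1 stood above the other 3 in this list. Without it the median difference was 0.72, it was above 0 for 31 of 33 genes, and 5 were called. The count of 10 became 3 without wild-type unstimulated array 2, wild-type LPS array 1 or 2, or KO LPS array 3 or 4, 4 without KO unstimulated array 1 or 3, and 6 without KO LPS array 1. It was 0 with the sex term (median 0.94, 31 of 33 above 0), 1 without the arrays numbered 1, 4 with quantile normalisation and 15 with the blocks within treatment. The median lay between 0.62 and 0.999 in every alternative run.

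Ifit3, an antiviral protein that binds other Ifit proteins, lay at 11.86, 11.08, 10.63 and 10.47 in unstimulated wild-type and between 9.17 and 10.13 in unstimulated KO arrays. With LPS it lay at 11.31, 11.2, 11.61 and 12.06 and at 12.12, 11.91, 12.06 and 12.54. Every KO array was below every wild-type array without LPS, and the genotypes overlapped with LPS. The responses were 0.54 and 2.50, a difference of 1.96 ± 0.39 (adjusted p = 0.0179). Ifit3 has a near-identical neighbouring copy, and how far the probes of the copies bind each other's RNA is not known here.

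Usp18, which removes the ubiquitin-like protein ISG15 and limits interferon signalling, lay at 11.31, 10.89, 10.59 and 10.37 in unstimulated wild-type and at 8.67, 9.56, 9.1 and 9.42 in unstimulated KO arrays. With LPS it lay at 12.34 to 12.51 and 12.19 to 12.46. It rose 3.11-fold in wild-type and 8.71-fold in KO cells from that lower start (difference 1.49 ± 0.26, adjusted p = 0.0103). Mx2, a GTPase that blocks viruses, differed by 1.58 ± 0.29 (adjusted p = 0.0139). These 3 genes kept their calls in all 16 fits that leave out 1 array.

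Ifit1, Ifit2, Mx1 and Cmpk2 had differences of 1.70, 2.12, 1.67 and 1.48 (adjusted p from 0.0296 to 0.0365) and lost their calls in 7 to 10 of the 16 fits, with adjusted p up to 0.0727, 0.0752, 0.0787 and 0.0896. Tnfsf10, the death ligand TRAIL, is interferon-inducible but not on the list. It lay at 7.64, 6.88, 6.82 and 6.77 in unstimulated wild-type and 5.17, 6.1, 6.1 and 6.31 in unstimulated KO arrays, and at 8.37 to 8.97 and 9.1 to 9.65 with LPS. Its order reversed between treatments, with KO below wild type without LPS and above it with LPS, and the difference was 1.72 ± 0.32 (adjusted p = 0.014). Ifi209, of the interferon-inducible DNA-sensing family, differed by 1.71 ± 0.31 (adjusted p = 0.0131).

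The interferon response core marked in the Ifit3 promoter, searched on both strands, occurred in 11 of 31 windows of the interferon list (35.5%) and in 2.86% of all windows. It occurred in 14 of 220 windows of genes with a more positive KO response (6.36%) and in 5 of 58 of those with a more negative one (8.62%).

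**Figure D4:**
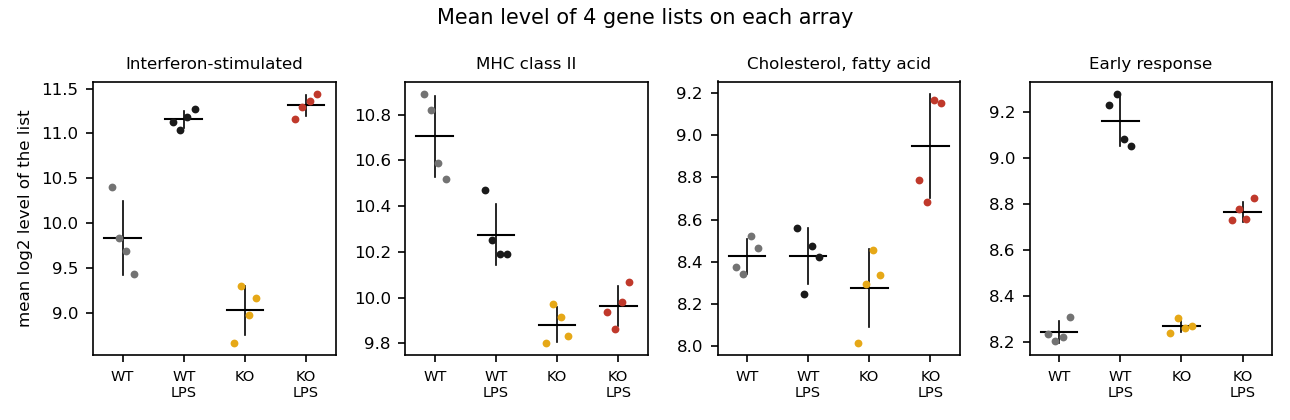
Mean log2 level (y axis, a separate scale for each list) of 4 gene lists on each array, with bars for the group mean and 1 SD (n = 4). The interferon list differs between genotypes without LPS, the early response list with LPS (8.73 to 8.83 in KO against 9.05 to 9.28 in wild-type arrays), and the cholesterol list is highest on the KO LPS arrays.

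Antigen presentation genes with a call had lower KO levels before LPS. Ciita, the master activator of MHC class II genes, lay at 9.44, 9.82, 9.2 and 9.15 in unstimulated wild-type arrays and at 6.88, 6.8, 7.13 and 7.23 with LPS. In KO arrays it lay at 7.24, 7.4, 7.9 and 7.54 without LPS and at 7.35, 7.31, 7.44 and 7.33 with LPS. KO cells were thus below unstimulated wild-type cells in both states, and wild-type cells with LPS were lower still. Ciita fell 5.24-fold in wild-type cells, the KO response was -0.17 (adjusted p = 0.542), and the difference was 2.22 ± 0.21 (adjusted p = 5.32e-05). With the sex term the difference was 2.17.

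Among 13 class II genes 2 were called (15.4%, against 1.29% of all genes), both more positive, with a median of 0.31. The second, H2-DMa, part of the exchanger that loads peptides, responded by -1.53 in wild-type and by -0.04 in KO cells (difference 1.49 ± 0.31, adjusted p = 0.0236). It lost its call without wild-type unstimulated array 2 (adjusted p = 0.0603), wild-type LPS array 2 (0.0611) or KO LPS array 3 (0.0586). The chain genes H2-Aa and H2-Ab1 did not pass, with differences of 0.87 ± 0.29 (adjusted p = 0.209) and 0.73 ± 0.23 (adjusted p = 0.175). Both were lower in KO than in wild-type cells in each treatment, by 2.28 and 1.81 without LPS and by 1.41 and 1.08 with LPS.

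In the class I pathway 2 of 14 genes were called, with a median of 0.46 and 13 of 14 above 0. Tap1, a subunit of the peptide transporter, was at 10.64, 10.11, 10.22 and 9.94 in unstimulated wild-type and at 8.99, 9.55, 9.28 and 9.41 in unstimulated KO arrays, and it overlapped with LPS at 11.08 to 11.36 and 11.15 to 11.4. It rose by 1.0 in wild-type and by 1.99 in KO cells (difference 0.98 ± 0.19, adjusted p = 0.0179). H2-M3, which presents bacterial peptides, differed by 0.69 ± 0.16 (adjusted p = 0.0431). That call was lost with the blocks within treatment (adjusted p = 0.0522) and in 13 of 16 fits that leave out 1 array (adjusted p up to 0.0975).

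Toll-like receptor signalling genes gave 2 calls among 21 (9.52%, against 1.29% of all genes), both more positive. Both calls were kept in all 16 fits that leave out 1 array. Both were lost without the arrays numbered 1 in all groups, in the fit to all probe sets and with the sex term. Cd14, the LPS co-receptor, lay at 11.69 to 11.85 in unstimulated wild-type and at 10.05, 10.81, 10.62 and 10.86 in unstimulated KO arrays. With LPS it lay at 12.7 to 12.96 and 12.53 to 12.76, so the gap between genotypes was smaller after LPS. It rose 2.05-fold in wild-type and 4.08-fold in KO cells (difference 0.99 ± 0.19, adjusted p = 0.016). Tlr9, which senses microbial DNA, responded by -1.42 in wild-type and by -0.17 in KO cells (difference 1.25 ± 0.24, adjusted p = 0.0145). Tlr3 and Tlr6 were called with the blocks within treatment (adjusted p = 0.0327 and 0.0491) and not without them (0.132 and 0.13).

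Sterol synthesis formed a further group. Of 25 measured genes of cholesterol and fatty acid synthesis, 5 had a more positive KO response, 0 a more negative one, and 24 of 25 differences were above 0, with a median of 0.72. At an unadjusted p under 0.05, 17 passed, against 10.3% of all genes. The called share was 20%, against 1.29% of all genes. The median response was 0.07 in wild-type and 0.66 in KO cells, and KO minus wild type was -0.16 without LPS and 0.53 with LPS. This separation after LPS differs in shape from that of the interferon list, where the genotypes separated before it.

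Msmo1, a sterol demethylating oxidase, lay at 9.74, 9.58, 9.74 and 9.71 in unstimulated wild-type and at 9.62, 8.83, 9.26 and 9.28 in LPS wild-type arrays. In KO arrays it lay at 9.28, 9.64, 9.64 and 9.68 without LPS and at 10.29, 10.18, 10.62 and 10.74 with LPS. It fell by 0.45 in wild-type cells (adjusted p = 0.0297) and rose by 0.90 in KO cells (adjusted p = 0.000141), a difference of 1.35 ± 0.21 (adjusted p = 0.00588).

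Fdft1, squalene synthase, responded by 0.07 in wild-type and rose 2.83-fold in KO cells (difference 1.43 ± 0.28, adjusted p = 0.0172). Sqle, the next enzyme, responded by 0.53 and 1.71 (difference 1.18 ± 0.25, adjusted p = 0.0243), and lost its call without wild-type unstimulated array 3 (adjusted p = 0.0509), wild-type LPS array 2 (0.0617) or KO LPS array 3 (0.0596). Dhcr7, of the last step to cholesterol, fell 2.37-fold in wild-type and 1.35-fold in KO cells (difference 0.81 ± 0.15, adjusted p = 0.0131). The fifth was Nsdhl at 0.78 ± 0.18 (adjusted p = 0.0393), named after its values were seen.

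Without wild-type unstimulated array 3, wild-type LPS array 2 or KO LPS array 3 the count of 5 became 3, with the blocks within treatment 9, and with the sex term 0, where the median was 0.77 with 24 of 25 above 0. Scd2, a fatty acid desaturase, differed by 1.41 ± 0.54 (adjusted p = 0.311, and 0.00651 with the blocks). Of 16 LXR targets, which govern cholesterol export, 0 were called in limma (3 at an unadjusted p under 0.05, and 1 in each direction with the blocks), with a median of 0.07. The shares over all genes were 1.29% called and 10.3% unadjusted. A sterol regulatory motif, ATCAC and CCAC separated by 1 base, was in 0 of 24 windows of the synthesis list and 31 of 19176 of all genes (0.16%). At so low a rate 24 windows cannot show whether the list differs from all genes. Windows were found for 19 of the 25 list genes, and Fdft1 and Sqle had none.

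**Figure D5:**
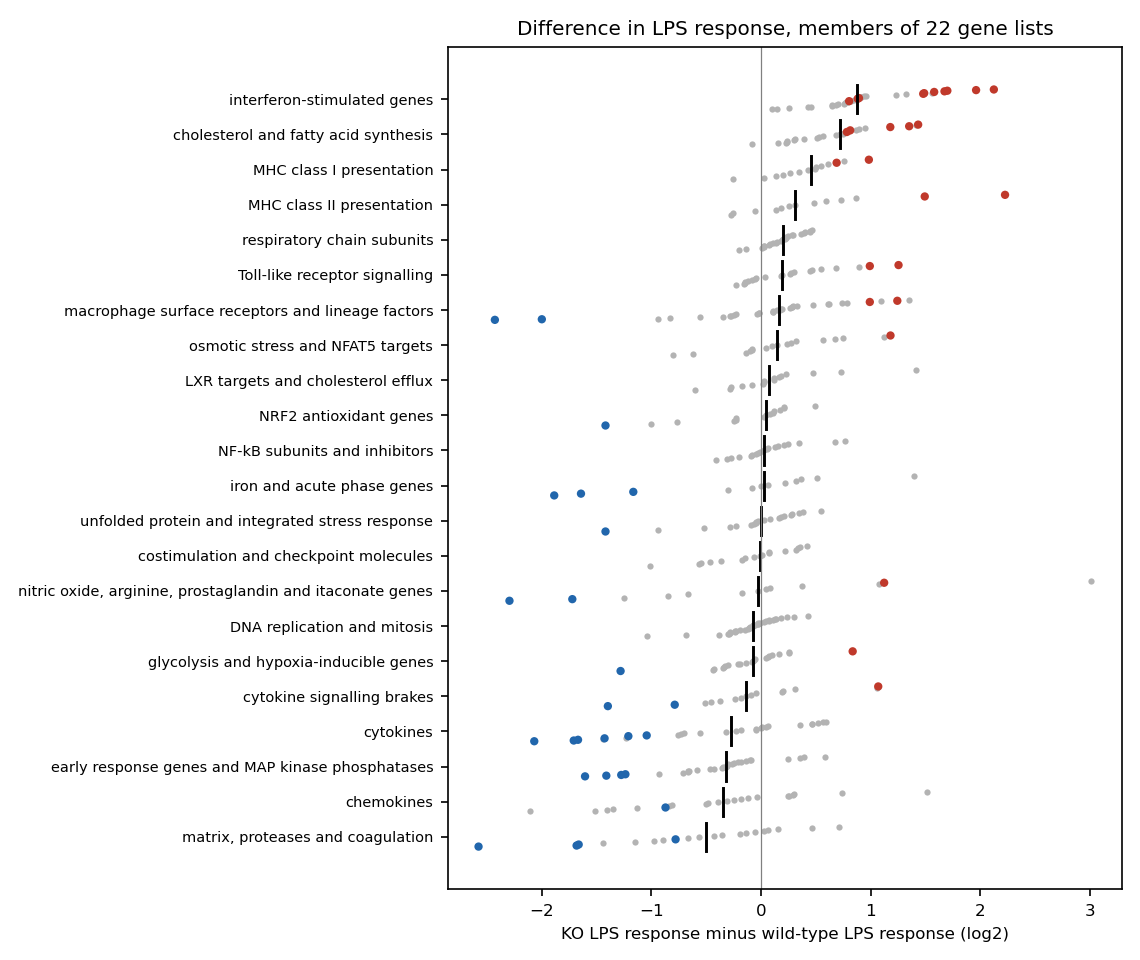
KO LPS response minus wild-type LPS response (x axis, log2) for each measured member of 22 gene lists, ordered by the list median (black tick). Grey points are not called, red points are called with a more positive and blue points with a more negative KO response. The interferon list has the highest median, 0.88, and the matrix, protease and coagulation list the lowest, -0.50.

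Among genes that LPS repressed, Kcnj10, an inwardly rectifying potassium channel, had the same adjusted p as Ciita, the smallest of all genes. It lay at 10.25, 10.66, 10.12 and 10.59 in unstimulated wild-type and at 10.53, 10.69, 10.74 and 10.66 in unstimulated KO arrays. With LPS it lay at 7.53, 7.38, 7.27 and 7.41 and at 9.55, 9.56, 9.19 and 9.49. The start was shared and the end was not: it fell 8.05-fold in wild-type and 2.31-fold in KO cells (difference 1.80 ± 0.17, adjusted p = 5.32e-05). With the sex term the difference was 1.84.

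Ptger4, a receptor of prostaglandin E2, responded by -1.44 in wild-type and by 0.23 in KO cells (difference 1.67 ± 0.26, adjusted p = 0.00588). Alox5, which makes leukotrienes, lay at 7.65 to 8.15 in unstimulated wild-type arrays and at 6.26 to 7.0 in the other 3 groups (difference 1.12 ± 0.19, adjusted p = 0.00932). Ccr2, the receptor of Ccl2, fell 6.52-fold and 2.76-fold to a shared level (difference 1.24 ± 0.26, adjusted p = 0.0224), and lost its call without wild-type unstimulated array 2 (adjusted p = 0.0534), KO unstimulated array 1 (0.0533) or KO LPS array 3 (0.0509).

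Hpgd, which degrades prostaglandins, had the largest difference of all genes named, 3.01 ± 0.74, and was not called (adjusted p = 0.0539). In unstimulated KO arrays it lay at 7.5, 9.91, 6.05 and 6.55, against 11.28 to 11.82 in unstimulated wild-type arrays. KO unstimulated array 2 stood apart, and without it the adjusted p was 0.000104. With the blocks it was 0.0144.

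Some genes off the lists rose further in KO cells. Apol7c, of the apolipoprotein L family, lay at 7.26, 7.33, 6.5 and 6.43 in wild-type LPS arrays and at 9.76, 10.93, 9.04 and 8.87 in KO LPS arrays. Without LPS it lay between 5.5 and 6.28 in both genotypes. It rose 2.23-fold in wild-type and 12.9-fold in KO cells, the largest positive difference among called genes named here (2.54 ± 0.46, adjusted p = 0.0131). With the sex term, where KO array 4 alone stands for KO cells in each treatment, the difference was 1.44. The folds of Apol7c start from dim levels and are not exact. Gca, a calcium-binding protein of myeloid cells, rose 2.95-fold and 8.35-fold (difference 1.5 ± 0.26, adjusted p = 0.011), and its KO minus wild-type difference without LPS was -0.77 (limma adjusted p = 0.0585, not called).

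Osmotic stress genes include the classic targets of NFAT5. Of 17 measured, 1 was called (8 at an unadjusted p under 0.05), with a median difference of 0.14. The called share of 5.88% thus rests on 1 gene. Over all genes 1.29% were called and 10.3% passed the unadjusted threshold. With the blocks within treatment 3 were called more positive and 1 more negative, by the addition of Slc38a2, S100a4 (0.564, adjusted p = 0.0225) and the chaperone Hspa1a (-0.807, adjusted p = 0.00681). Leaving out 1 array gave 0 to 2, with 0 without KO LPS array 1 and 2 without wild-type LPS array 1 or KO LPS array 4. Slc5a3, the importer of the osmolyte myo-inositol, lay at 8.8, 8.55, 8.67 and 8.74 in unstimulated wild-type and at 6.36, 7.01, 6.86 and 6.59 in unstimulated KO arrays. With LPS it lay at 7.59 to 8.23 and 6.6 to 7.38. It fell by 0.85 in wild-type cells, the KO response was 0.32 (adjusted p = 0.211), and the difference was 1.17 ± 0.24 (adjusted p = 0.0218, and 0.0534 without KO LPS array 1).

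Slc38a2, an amino acid importer, was at 9.36, 9.84, 9.65 and 9.05 in unstimulated KO arrays and at 11.03, 11.13, 10.54 and 9.83 with LPS, while wild-type arrays stayed between 11.27 and 11.66. Its difference of 1.12 ± 0.31 missed the threshold (adjusted p = 0.105) and passed it with the blocks (0.0122) and without KO LPS array 4 (0.0101). Fxyd2, a regulator of the sodium pump, was lower in KO cells by 3.82 without and by 3.07 with LPS, and its difference in response was 0.75 ± 0.21 (adjusted p = 0.113). Nfat5 itself responded by 0.68 in wild-type and by 0.05 in KO cells, a difference of -0.62 ± 0.23 that was not called (adjusted p = 0.277).

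The remaining lists ranged from 0% to 23.1% called, against 1.29% of all genes. The highest share was that of the arginine, nitric oxide and lipid mediator genes, followed by glycolysis and hypoxia-inducible genes at 9.09%. Arginine, nitric oxide and lipid mediator genes gave 2 more negative and 1 more positive among 13: Nos2, Alox5 and Arg2, the mitochondrial arginase, at -1.72 ± 0.38 (adjusted p = 0.0315, call lost in 11 of 16 fits that leave out 1 array, up to 0.076). Glycolysis and hypoxia-inducible genes gave 1 in each direction among 22, the hexose transporter Slc2a6 at 0.83 (adjusted p = 0.0245, lost in 5 of 16 fits, up to 0.0609) and the vasodilator peptide Adm at -1.28 (adjusted p = 0.046, lost in 13 of 16, up to 0.099). Slc7a11, the cystine importer, at -1.42 (adjusted p = 0.0431, lost in 12 of 16, up to 0.102), was the only call among 15 NRF2 antioxidant genes and among 20 genes of the unfolded protein and integrated stress response. The blocks within treatment added Slc7a2 and Hpgd to the first of these lists, Gsr to the NRF2 genes and Psat1 to the stress response genes. Of 26 respiratory chain subunits 0 were called in limma (5 at an unadjusted p under 0.05, 0 with the blocks within treatment), with 24 of 26 differences above 0 and a median of 0.20, against -0.02 over all genes. Of 35 DNA replication and mitosis genes 0 were called in limma (3 at an unadjusted p under 0.05, 2 with the blocks), with a median of -0.08.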

How the data were processed

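The authors deposited log2 expression levels per probe set, computed by RMA (robust multi-array average) per the submitters' processing notes. RMA gives all arrays a common distribution and so hides a shift that all genes share. Of 34760 probe sets, 21640 had 1 gene in the platform annotation, 1321 had several, and 11799 were not listed and stay unnamed. A gene's brightest probe set by the mean of the 16 arrays stood for it, which gave 19937 genes, 954 of them with a choice of probe sets. One limma fit (version 3.58.1, R 4.3.3, lmFit then eBayes) held the 16 arrays with 4 group means and 12 residual degrees of freedom. The contrast was the KO response to LPS minus the wild-type response. A gene was called when its p, adjusted after Benjamini and Hochberg across the 19937 genes, was under 0.05. The script was tested on simulated data.

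Named genes were the 15 most negative and the 15 most positive called differences without predicted genes and tandem copies, from each list at most 4 genes, those of lowest p, called or not, and 9 genes that were always named (Ciita, Nfat5, Nos2, Ptgs2, Tnf and the cytokines Il1b, Il6, Il12b and Ccl2), less some for brevity. The comparison, the genes and the lists were chosen with earlier results of these data known.

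The titles give arrays of all groups the numbers 1 to 4. After the group means were taken out, same-numbered KO and wild-type arrays correlated at 0.16 to 0.442 (unstimulated) and 0.186 to 0.518 (LPS). All were above 0.1, the minimum set for using the numbers as blocks. The titles do not say what a shared number stands for, and KO arrays 1 to 3 differ in sex from wild-type arrays of the same number. These correlations therefore do not show that the genotypes were paired. Between treatments the correlations were 0.045 to 0.429 in wild-type and -0.06 to 0.558 in KO cells. They fell under 0.1 for number 1, so no exact permutation test of the differences per number was run. Promoters come from RefSeq on GRCm38.p6. Alternatives covered the array scaling, the dim probes, the choice of probe set, the variance model, blocks, sex and each array left out.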

Additional observations from a re-analysis of the deposited data

Results flagged for a closer look

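Counts of 197 and 60 genes are listed because the responses of the genotypes differ by a test of the difference itself, with a more positive KO response in the 197 and a more negative one in the 60. For 10 genes the response was called in both genotypes with opposite signs. The difference was 1.21 for 5430427O19Rik, 1.44 for Cd72, -1.27 for Egr1, 0.86 for Fbrsl1, 1.35 for Msmo1, 0.83 for Necap1, 0.78 for Nsdhl, 1.16 for Otud1, 0.71 for Ptpro and 0.78 for Trim14. Cd72, an inhibitory receptor, fell by 0.87 in wild-type and rose by 0.56 in KO cells, and Otud1, a deubiquitinase, fell by 0.71 and rose by 0.45. Egr1 was the only one of the 10 that rose in wild-type and fell in KO cells.

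Single arrays stood apart in 13 of 284 gene groups examined (71 genes in 4 groups), and chance flags about 1 in 20. Nos2 was at 8.67 on KO LPS array 4, against 7.8 to 7.91 on the other 3, and array 4 is the female KO array by Xist. Il6 was at 3.86 on wild-type unstimulated array 2, Mmp13 at 8.1 and Tnfsf10 at 7.64 on wild-type unstimulated array 1, Fosl2 at 8.96 on wild-type unstimulated array 4 and Ccr2 at 7.73 on wild-type unstimulated array 3. On wild-type LPS array 2, Tnfsf10 was at 8.37, Sqle at 8.55 and Zfp36l2 at 9.02, each the lowest of its group. Slc38a2 was at 11.27 on wild-type LPS array 4. On KO unstimulated array 1, H2-DMa was at 8.07 and Msmo1 at 9.28, both the lowest of their group. Gca was at 9.89 on KO LPS array 3.

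Among the 11799 probe sets for which the annotation lists no gene, 5 were called in the fit to all probe sets, all with a more positive KO response. They enter no comparison above.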

How the results depend on the processing

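In total 30 settings were run, 27 planned and 3 chosen after seeing the data (the block within treatment, the fit to all probe sets, and the fit without the arrays numbered 1). The direction of all 257 called genes was kept in each, or of the 254 that remained tested when genes with a mean under 7 were left out. These fits share the arrays that chose the genes, so this is no independent check. Calls per setting are given as total, more positive and more negative, against 257, 197 and 60 as reported. Leaving out 1 array gave 133 to 271 in total, 93 to 211 and 39 to 85.

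Replicate blocks raised the counts. They were 451, 340 and 111 with the number as a block over all groups, and 498, 385 and 113 with blocks within genotype. With the blocks within treatment, where all same-numbered arrays correlated above 0.1, they were 631, 474 and 157. Between the treatments same-numbered arrays correlated above 0.1 for numbers 2, 3 and 4 and not for number 1, and KO arrays 4 are the female ones in both. Blocked values stand beside some of the genes whose call they change. The blocks within treatment also called Zc3h12a (adjusted p = 0.0428), Tyms, Psat1, Hspa1a, Gsr, Mki67 and Mylip. Further list members called only with these blocks were Ccl22 (-2.10, limma adjusted p = 0.00936), Ier2, Oas2, Parp14, Eif2ak2, Irgm1, Iigp1, Hmgcs1, Lss, Hsd17b7 and Fn1. These were named after their values were seen. Array weights gave 492, 341 and 151. Median centring gave 302, 250 and 52, quantile normalisation 202, 122 and 80, and leaving out dim genes 339, 266 and 73. The mean of a gene's probe sets gave 255 calls in all and a trended, robust variance 242.

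Fewer calls came with the sex term (8, 2 and 6), the arrays with Xist above Kdm5d (4, 2 and 2), all probe sets (54, 36 and 18), without the arrays numbered 4 (153, 95 and 58) and without those numbered 1 (33, 23 and 10). The sex term left 10 residual degrees of freedom against 12. Over all probe sets the prior variance carried 3 degrees of freedom against 5.65, and 54 of 54 genes called were among the 257. With the sex term the calls were Ciita, Il6, Kcnj10, Nos2, Olr1, Phlda1, Ptpre and Tmc3.

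Of 105 genes named by the rule, 56 were called as reported and 36 kept the call in all 16 fits without 1 array. None of the 105 had its direction reversed with a call on either side. Dim genes such as Il6 and Trem1 without LPS lie low on the RMA scale, which limits their folds.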
